A study of Homo sapiens with 8 samples.

Results

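The 35 genes described here drive or mark the cell division cycle, and they were followed in the human prostate cancer line 22Rv1 and 3 derivatives of it. They were taken as every probe of the deposited table whose platform annotation gives one of 35 listed gene symbols, which found 50 probes among 47320. By role, 12 genes (19 probes) act at the G1/S boundary or in DNA replication and 23 genes (31 probes) act in mitosis. All 35 lay above background and were tested among 12363 genes.

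The 4 groups were the parental line, whose name carries the luciferase tag Luc2 (22Rv1-Luc2), cells of a primary tumour grown from 22Rv1 (22Rv1-PT), and the metastatic tumour derivatives 22Rv1-M3-1 and 22Rv1-M3-2, each with 2 arrays. Total RNA was hybridised as biotin-labelled cRNA to single-colour Illumina arrays. The labels name no drug, no engineered gene other than the luciferase tag in the name of the parental line, and no animal strain or age. Where the metastases grew, how many animals were used and what "M3" stands for is not stated in the labels. Each of M3-1 and M3-2 is 1 derivative, so a difference between them is a difference between these derivatives. Whether both arrays of a group hold RNA of separate cultures or animals is not stated either, so the p-values reflect the spread of these arrays alone, which may be technical.

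As background, a dividing cell commits to replication when cyclin D and cyclin E kinases release E2F factors from the retinoblastoma protein. E2F factors then switch on the genes of DNA replication, such as the MCM helicase, the sliding clamp PCNA and the enzymes that make deoxynucleotides. Genes of mitosis peak later, in G2 and M, and many are held down in resting cells by the DREAM complex, which binds a short promoter element called the cell cycle homology region, and are turned on through B-MYB, FOXM1 and the CCAAT-binding factor NF-Y. In prostate cancer the protein of MKI67 (Ki-67) is the usual measure of dividing cells in tissue sections.

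Promoters are shown because these genes are known for shared promoter elements that set the time of their expression. RefSeq promoter sequences (GRCh38.p14, from 250 bases before to 50 bases after the gene start) were found for 27 of the 35 genes. The words TTTGAA and TTCGAA (forms of the cell cycle homology region), CCAAT (the NF-Y box) and the E2F forms GGCGGGAA, GGCGCGAA and GCGCGAAA were searched on both strands, and the last of these E2F forms can overlap the one before it. Capitals mark these words on either strand. CDC20, CENPF, KIF20A and MKI67 are the mitotic genes on which the results below turn. MCM6 is shown as a replication gene with E2F words. CDC20 lies on the + strand at chr1:43358731-43359030, CENPF on the + strand at chr1:214602945-214603244 and KIF20A on the + strand at chr5:138178862-138179161. MKI67 lies on the - strand at chr10:128126374-128126673 and MCM6 on the - strand at chr2:135876394-135876693.
CDC20: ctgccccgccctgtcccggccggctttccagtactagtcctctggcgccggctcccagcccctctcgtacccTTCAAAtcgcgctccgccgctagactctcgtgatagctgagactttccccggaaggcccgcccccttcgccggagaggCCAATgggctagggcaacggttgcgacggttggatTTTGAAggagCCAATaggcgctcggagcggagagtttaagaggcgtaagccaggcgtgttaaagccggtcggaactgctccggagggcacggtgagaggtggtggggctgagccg
CENPF: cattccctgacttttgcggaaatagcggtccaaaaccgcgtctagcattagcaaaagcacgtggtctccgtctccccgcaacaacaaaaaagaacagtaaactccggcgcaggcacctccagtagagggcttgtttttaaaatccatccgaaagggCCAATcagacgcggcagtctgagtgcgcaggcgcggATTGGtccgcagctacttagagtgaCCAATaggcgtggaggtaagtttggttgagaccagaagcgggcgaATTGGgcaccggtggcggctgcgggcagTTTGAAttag
KIF20A: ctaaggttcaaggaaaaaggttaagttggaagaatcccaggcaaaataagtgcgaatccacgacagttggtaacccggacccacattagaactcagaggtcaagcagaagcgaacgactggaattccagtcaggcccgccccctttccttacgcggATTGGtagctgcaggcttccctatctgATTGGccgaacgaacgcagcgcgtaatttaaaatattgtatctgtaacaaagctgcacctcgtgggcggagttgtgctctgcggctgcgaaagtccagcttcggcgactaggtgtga
MKI67: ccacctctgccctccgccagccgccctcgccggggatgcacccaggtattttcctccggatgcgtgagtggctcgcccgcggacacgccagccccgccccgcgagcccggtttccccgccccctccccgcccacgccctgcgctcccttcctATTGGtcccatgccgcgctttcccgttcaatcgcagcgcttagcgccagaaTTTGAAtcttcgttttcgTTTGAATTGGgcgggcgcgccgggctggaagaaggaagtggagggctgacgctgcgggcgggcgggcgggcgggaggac
MCM6: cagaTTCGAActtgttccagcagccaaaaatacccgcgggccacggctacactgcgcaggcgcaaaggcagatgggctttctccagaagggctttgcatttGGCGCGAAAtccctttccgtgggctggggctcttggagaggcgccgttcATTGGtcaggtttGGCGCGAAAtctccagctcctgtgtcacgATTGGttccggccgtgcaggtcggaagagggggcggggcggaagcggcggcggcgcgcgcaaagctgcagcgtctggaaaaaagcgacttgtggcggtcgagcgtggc

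The CDC20 and MKI67 promoters pair the cell cycle homology region with CCAAT words, and that of KIF20A holds CCAAT words alone. In the MCM6 promoter the word GGCGCGAAA, in which both E2F forms overlap, stands at 2 places. A cell cycle homology word stood in 13 of 18 mitotic promoters (72.2%) and in 16.4% of all 35116 promoters of this length. Of the 9 G1/S and replication promoters 1 held such a word (11.1%), that of MCM6, so MCM6 is not typical of its group. A CCAAT word stood in 83.3% of the mitotic and 66.7% of the G1/S and replication promoters, against 34.6% of all. An E2F word stood in 5 of the 9 G1/S and replication promoters (55.6%) and in 1 of the 18 mitotic ones (5.56%), that of CDK1, against 4.3% of all. The CCNE1 promoter held none of these words in this window. These are matches of letters and say nothing of what is bound there.

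The deposited values are log2 intensities, here from 5.32 upward, and with a background level of 6.54 above which a gene had to lie on at least 2 arrays. CCNE2 was dim, with 1 of 2 parental and 1 of 2 M3-1 arrays above that level. The number of arrays limits the precision. The parental arrays lay farthest apart. Their correlation across genes was 0.987 against 0.993 to 0.997 in the other groups, and the median gap between them was 0.26 for the mitotic genes and 0.20 for all genes. The widest gap among the 35 genes was that of TOP2A, the topoisomerase that untangles replicated chromosomes, at 10.97 and 11.88 in the parental arrays. Prostate epithelial markers were present, with HOXB13, KRT8, KRT18, EPCAM and TMPRSS2 above background, while KLK3 was not above it on any array (highest 6.39). Of 8 fibroblast markers LUM, DCN and COL1A1 were above background and COL1A2, COL3A1, PDGFRA, PDGFRB and THY1 were not. Their mean over the 3 genes ran from 6.59 to 6.77 in parental arrays, 7.22 to 7.37 in primary tumour arrays, 8.26 to 8.33 in M3-1 and 8.51 to 8.54 in M3-2. LUM moved it most, and any part of such cells in the differences below was not tested. Of the blood markers CD68, CD14 and LYZ were above background, with means from 7.72 to 8.07 in M3-2 and from 8.10 to 8.21 elsewhere, while PTPRC and CD3E were not. None of 5 endothelial markers was above background.

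The 35 genes were first set beside all genes for any difference among the 4 groups. By limma's moderated F test, 4 of 35 differed among the groups after adjustment over all genes (adjusted p below 0.05, referred to as called), against 16.3% of all 12363 genes. These were the G1 cyclin gene CCNE1 (adjusted p = 0.00179) and the mitotic genes CENPF (0.0152), KIF20A (0.019) and MKI67 (0.047). In the 6 pairwise comparisons, 6 of the 210 gene and comparison pairs were called (2.86%), against 8.2% of the pairs over all genes. The standard error of a difference was 0.14 at the median (0.12 to 0.23), and in each comparison at least 34 of the 35 genes had a 95% interval inside a 2-fold change in either direction, against 93.9% to 98.3% of all genes. The exception was CCNE1, in the primary tumour cells against the parental line and in M3-1 against the primary tumour cells. In bulk RNA, fewer dividing cells and less RNA per dividing cell cannot be told apart.

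**Figure D1:**
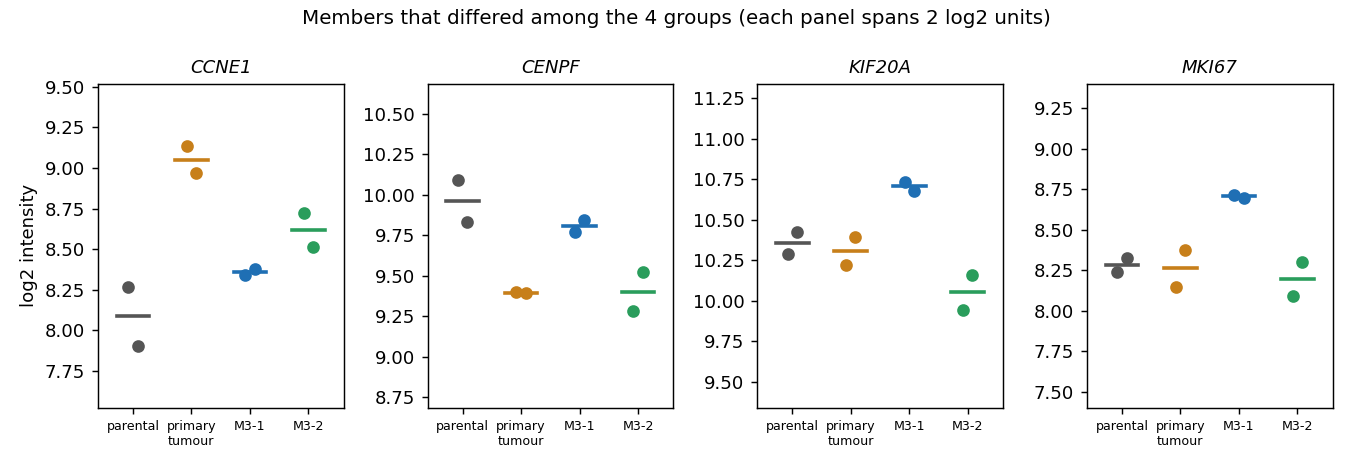
Log2 intensity (vertical axis) of CCNE1, CENPF, KIF20A and MKI67 in the 4 groups (horizontal axis). Each point is 1 array and each bar the mean of 2 arrays. CCNE1 is highest in primary tumour arrays (9.14 and 8.97), CENPF is lower in primary tumour and M3-2 arrays, and KIF20A and MKI67 are highest in both M3-1 arrays.

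The widest contrast among the mitotic genes lay between the metastatic derivatives. KIF20A, the kinesin that builds the central spindle for cytokinesis, read 10.73 and 10.68 on the M3-1 arrays, 9.94 and 10.16 on the M3-2 arrays, 10.29 and 10.42 on the parental arrays and 10.22 and 10.39 on the primary tumour arrays. The M3-2 arrays were the lowest and the M3-1 arrays the highest of the 8, with no overlap. KIF20A was 1.57-fold lower in M3-2 than in M3-1 (log2 difference -0.65, SE 0.13, limma adjusted p = 0.0151), and it was the only one of the 35 called there, against 2.45% of all genes (1.04% lower and 1.41% higher). The call was lost without either M3-1 array (adjusted p = 0.237 without replicate 1 and 0.162 without replicate 2) and without M3-2 replicate 1 (0.211). With KIF20A, 9 of the 35, all of them mitotic, had an unadjusted p under 0.05, against 10.2% of all genes.

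MKI67, the gene of the Ki-67 antigen that coats mitotic chromosomes, showed the same order of groups. It read 8.71 and 8.70 in M3-1, 8.09 and 8.30 in M3-2, 8.24 and 8.32 in the parental line and 8.15 and 8.38 in the primary tumour cells. Only M3-1 stood apart, and the other 3 groups overlapped. The differences of M3-1 missed the threshold one by one, at 0.43 against the parental line (adjusted p = 0.063), 0.45 against the primary tumour cells (0.0558) and -0.51 for M3-2 minus M3-1 (0.0679). Its call in the F test held in 10 of 17 settings of the analysis (adjusted p from 0.00504 to 0.325).

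AURKA, the kinase that matures centrosomes and the spindle poles, read 11.18 and 11.17 in M3-1 and 10.71 and 10.70 in M3-2. The parental arrays read 11.14 and 10.95 and the primary tumour arrays 10.92 and 11.06, so M3-2 was below every other array. The difference between M3-2 and M3-1 was -0.47 (SE 0.13, adjusted p = 0.0805), and a second AURKA probe gave -0.51 (adjusted p = 0.0538 with probes tested apart). The values of CDC20, the activator that lets the anaphase-promoting complex start chromosome separation, were 13.15 and 13.11 in M3-1 and 12.43 and 12.67 in M3-2, a difference of -0.58 (SE 0.16, adjusted p = 0.0862). CDC20 in M3-2 lay below every other array, the lowest of which was a parental one at 12.69. CCNB2, a cyclin partner of CDK1, read 11.59 and 11.73 in M3-1 and 11.26 on both M3-2 arrays (-0.40, adjusted p = 0.149), again with M3-2 below all other arrays.

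The same direction ran through the mitotic group. In M3-2 minus M3-1, 22 of the 23 differences were below zero (51.8% of all genes were), with a median of -0.22 against -0.01 for all genes. On 17 of the 23 both M3-2 arrays lay below both M3-1 arrays, against 23.1% of all genes, and on 0 of the 23 above, against 21.4%. The 17 were KIF20A, MKI67, AURKA, CDC20, CCNB2, CENPF, BIRC5, UBE2C, CENPE, TPX2, BUB1, KIF23, CCNA2, PLK1, TTK, CDK1 and NUSAP1. Outside them, AURKB, BUB1B, CCNB1, TOP2A and NDC80 were lower with overlapping arrays. KIF11, the kinesin that pushes spindle poles apart, was the exception, at 0.05 (95% interval -0.27 to 0.37). For NDC80, which ties kinetochores to microtubules, the difference was -0.01 (95% interval -0.34 to 0.31). Genes read on the same arrays are not independent, so these counts describe 4 arrays and are not 23 separate tests. Most of the 18 settings tried cannot change these differences, such as leaving out a parental or primary tumour array. Leaving out 1 M3-1 or M3-2 array gave medians from -0.31 to -0.21, with 20 to 23 of the 23 differences below zero.

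**Figure D2:**
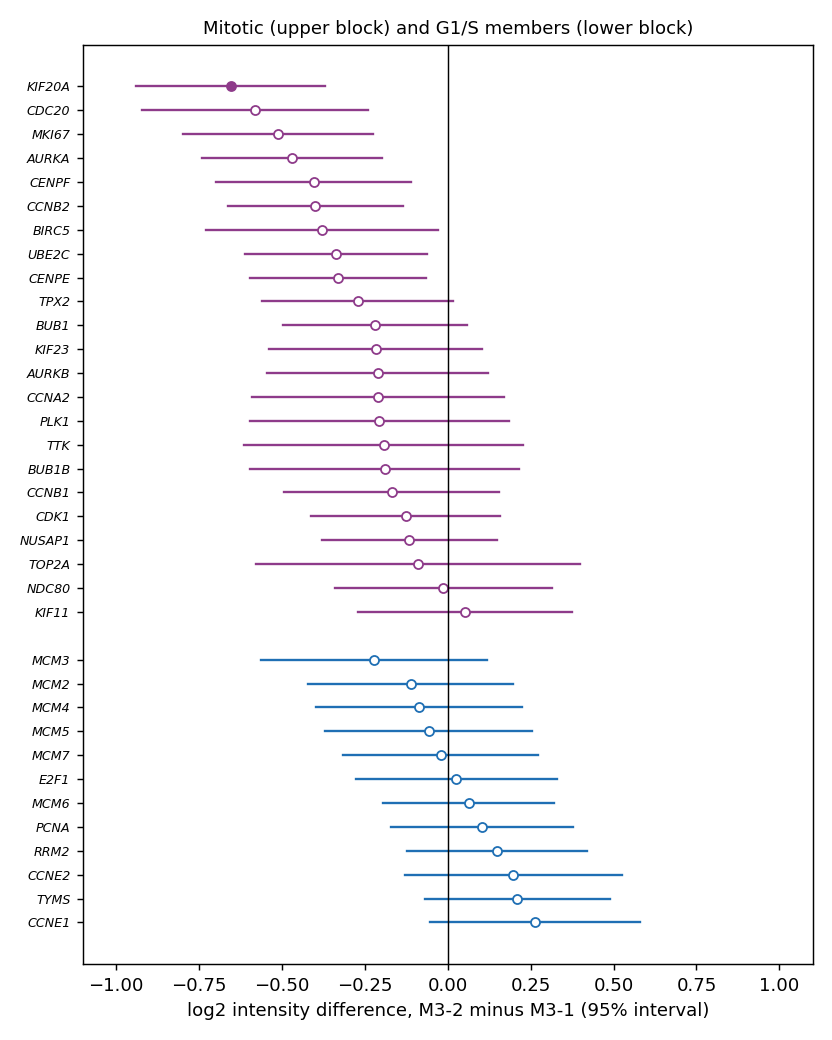
Log2 intensity difference, M3-2 minus M3-1 (horizontal axis), for each of the 35 genes, with lines for the 95% interval of the limma fit. The mitotic genes form the upper block and the G1/S and replication genes the lower. The filled point, KIF20A at -0.65, is the only called gene, and 22 of 23 mitotic points lie left of zero against 5 of 12 in the lower block.

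By role, the mitotic cyclins and CDK1 differed by -0.40 (CCNB2) to -0.13 (CDK1). The mitotic and checkpoint kinases AURKA, AURKB, PLK1, BUB1, BUB1B and TTK differed by -0.47 to -0.19, all 6 below zero. Among centromere and kinetochore proteins the differences ran from -0.40 (CENPF) to -0.01 (NDC80), with BIRC5, the survivin subunit of the chromosomal passenger complex, at -0.38 and the kinetochore motor CENPE at -0.33. The second CENPE probe gave -0.62 and was called when probes were tested apart (adjusted p = 0.0378). Of the second probes of 8 mitotic genes, 6 were below zero and 2 above, those of CDK1 (0.03) and NUSAP1 (0.10), against the sign of their brighter probes, and KIF11's second probe gave -0.17. Spindle motors and assembly factors ran from -0.65 (KIF20A) to 0.05 (KIF11), with TPX2, which activates AURKA on the spindle, at -0.27. UBE2C, the ubiquitin carrier of the anaphase-promoting complex, was at -0.34. TOP2A was at -0.09 with the widest interval (-0.58 to 0.40).

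Among the G1/S and replication genes the differences between the metastatic derivatives had mixed signs. In M3-2 minus M3-1, 5 of the 12 differences were below zero and 7 above, with a median of 0.04. On 5 of the 12 genes (CCNE1, CCNE2, MCM6, RRM2 and TYMS) both M3-2 arrays lay above both M3-1 arrays (21.4% of all genes) and on 0 below (23.1%). None was called (2.45% of all genes), and 0 of the 12 had an unadjusted p under 0.05 in limma (10.2% of all genes). The differences of the MCM genes ran from -0.22 (MCM3) to 0.06 (MCM6), and no MCM gene had an interval that reached a 2-fold change. The difference between the mitotic and the replication medians was not tested. Signs were less mixed against the primary tumour cells. There 10 of the 12 were below zero in M3-1 (median -0.14, 50.6% of all genes below zero) and in M3-2 (median -0.16, 52%). In primary tumour minus parental 9 of the 12 were above zero and 3 below (49.2% of all genes below). That median was 0.13, and 0.03 without parental replicate 2. The medians against the parental line were 0.03 in M3-1 and 0.05 in M3-2.

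The mitotic medians of M3-1 were also above those of the parental line and the primary tumour cells. In M3-1 minus parental, 20 of the 23 mitotic differences were above zero, with a median of 0.17 against 0.00 for all genes, and on 10 both M3-1 arrays lay above both parental arrays (23.8% of all genes), with 0 below (23%). None was called, against 9.86% of all genes (4.4% higher and 5.46% lower). An unadjusted p under 0.05 in limma was found for 6 of the 23, against 20.6% of all genes. These counts leaned on single arrays. Without parental replicate 1, 15 of the 23 differences were above zero and the median was 0.16, and without M3-1 replicate 1 it was 17 of 23 and 0.13. In M3-1 minus primary tumour, 18 of the 23 were above zero (median 0.16) and 12 lay above without overlap (28% of all genes), with 0 below (29.5%). None of the mitotic genes was called there, against 8.78% of all genes (3.87% higher and 4.91% lower), the lowest adjusted p being that of MKI67. For M3-2 minus primary tumour the mitotic median was -0.07, with 9 of 23 below without overlap (28.3%) and 0 above (23.9%), and for M3-2 minus parental it was -0.03, with 5 below (22.5%) and 1 above (21%). For the primary tumour cells minus parental it was -0.03, with 3 below (22%) and 3 above (22.6%), and it turned to 0.05 without parental replicate 2 and to 0.01 without primary tumour replicate 1. These comparisons share their arrays and do not repeat each other independently.

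**Figure D3:**
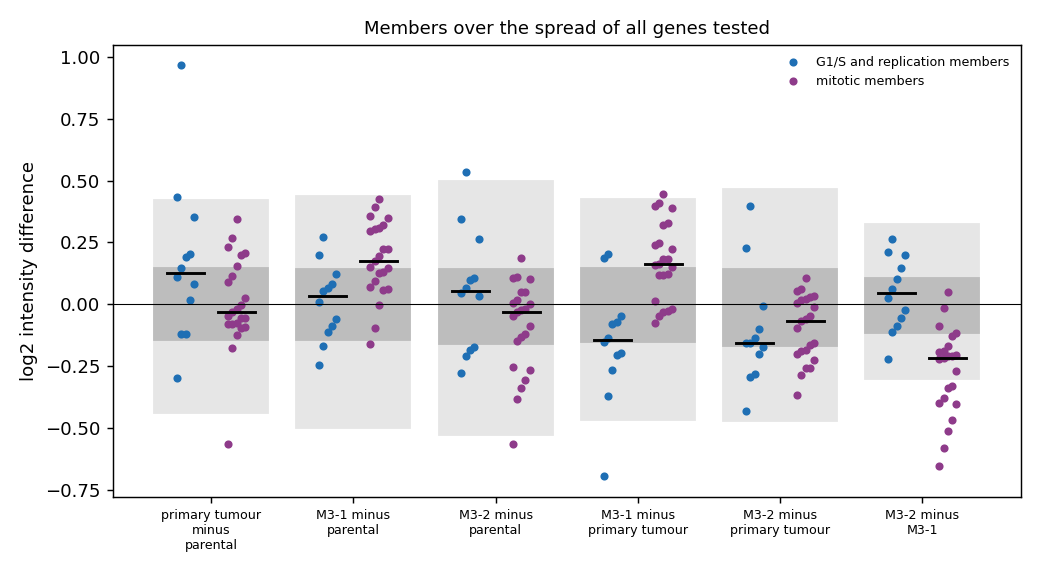
Log2 intensity differences (vertical axis) of the 12 G1/S and replication genes and the 23 mitotic genes in the 6 pairwise comparisons (horizontal axis). Black bars are the medians, dark grey boxes span the interquartile range of all 12363 genes and light boxes the 5th to 95th percentile. The mitotic median is -0.22 in M3-2 minus M3-1 and 0.17 in M3-1 minus parental, while CCNE1 is the isolated point at 0.97.

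The array by array view gives the same order. The median over mitotic genes of the value minus the gene's mean was 0.19 and 0.15 on the M3-1 arrays and -0.13 and -0.10 on the M3-2 arrays. On the parental arrays it was -0.07 and 0.04, and on the primary tumour arrays -0.05 and 0.00. Over all genes this median stayed between -0.01 and 0.01 on each array. For the G1/S and replication genes it was 0.10 and 0.11 in the primary tumour arrays and -0.06 and -0.04 in M3-1, with 0.06 and -0.08 in the parental arrays and 0.03 and -0.04 in M3-2. The gap between the parental replicates was thus as wide as several of the gaps between groups.

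**Figure D4:**
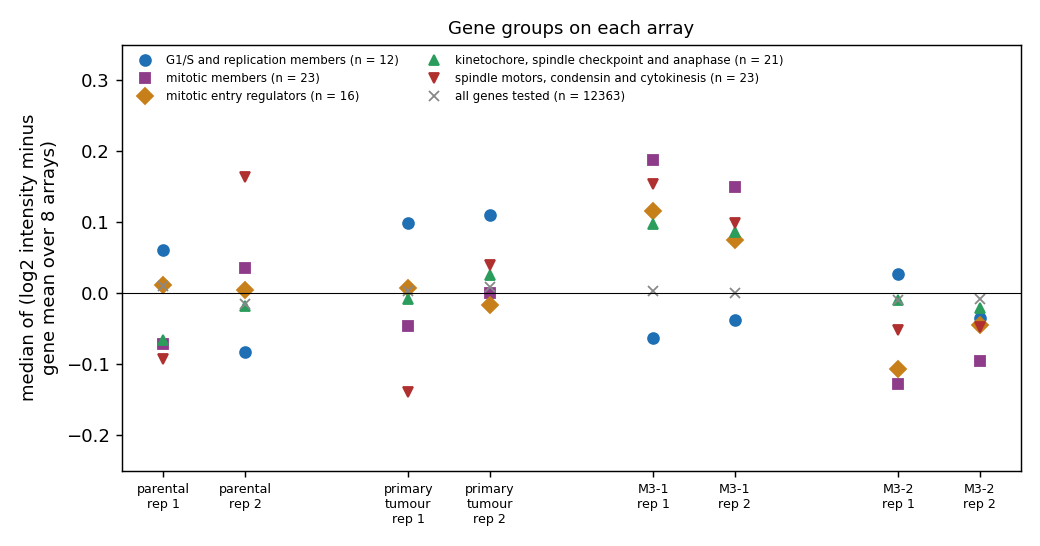
Median over each gene group of the log2 intensity minus the gene's mean over 8 arrays (vertical axis), on each array (horizontal axis). The mitotic genes are highest in both M3-1 arrays (0.19 and 0.15) and lowest in both M3-2 arrays (-0.13 and -0.10). The 3 further mitotic lists lie above zero in M3-1 and below zero in M3-2, the parental arrays lie far apart for the spindle list (-0.09 and 0.16), and all genes stay near zero.

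CENPF, a large kinetochore protein of G2 and M, followed another order. It read 10.09 and 9.83 in the parental line, 9.40 and 9.39 in the primary tumour cells, 9.77 and 9.84 in M3-1 and 9.28 and 9.52 in M3-2. The parental and M3-1 arrays overlapped, and so did the primary tumour and M3-2 arrays, with a gap from 9.52 to 9.77 between the pairs of groups. CENPF fell in the primary tumour cells against the parental line by 0.57 on the log2 scale (1.48-fold, SE 0.14, adjusted p = 0.0229) and in M3-2 by 0.56 (1.48-fold, adjusted p = 0.014). It was the only mitotic gene of the 23 called in either comparison, against 6.83% of all genes in the primary tumour cells (3.4% higher and 3.44% lower) and 12.1% in M3-2 (5.85% higher and 6.27% lower). M3-1 differed from the primary tumour cells by 0.41 (adjusted p = 0.0873), and M3-2 minus M3-1 was -0.40 (adjusted p = 0.212). The first call was lost without parental replicate 1 (0.0661), either primary tumour array (0.139 and 0.138) or either M3-1 array (0.0568). The second was lost without parental replicate 1 or M3-2 replicate 1. Both calls were also lost with only the groups compared.

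Of the 12 G1/S and replication genes, only CCNE1 was called in the F test, against 16.3% of all genes. CCNE1 is a cyclin E gene whose product binds CDK2 to start S phase. It read 8.27 and 7.90 in the parental line, 9.14 and 8.97 in the primary tumour cells, 8.34 and 8.38 in M3-1 and 8.72 and 8.51 in M3-2. The primary tumour arrays were the highest, M3-2 came next, then M3-1, then the parental line, and no neighbouring groups overlapped. CCNE1 rose 1.95-fold in the primary tumour cells (log2 difference 0.97, SE 0.15, adjusted p = 0.000978) and 1.45-fold in M3-2 (0.53, adjusted p = 0.0282) against the parental line. It was 1.62-fold lower in M3-1 than in the primary tumour cells (-0.69, adjusted p = 0.00801). No other of the 35 was called in that comparison, against 8.78% of all genes (3.87% higher and 4.91% lower). M3-2 against the primary tumour cells (-0.43, adjusted p = 0.0888), M3-1 against the parental line (0.27, adjusted p = 0.334) and M3-2 against M3-1 (0.26, adjusted p = 0.62) missed the threshold, so of the neighbours in this order none was shown to differ.

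The call of CCNE1 in the primary tumour cells held in each of the 18 settings (adjusted p from 3.41e-05 to 0.021). That in M3-2 was lost without parental replicate 2 (0.122), M3-2 replicate 1 (0.219) or either M3-1 array (0.0608). That of M3-1 against the primary tumour cells was lost without primary tumour replicate 1 (0.104) or M3-1 replicate 1 (0.101) or 2 (0.0795). A second, dim CCNE1 probe, above background on 2 of 8 arrays, gave 0.43 for the primary tumour cells minus parental (adjusted p = 0.0635) and -0.45 for M3-1 minus primary tumour (adjusted p = 0.0478) with probes tested apart.

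CCNE2, the second cyclin E gene, read 6.26 and 6.61 in the parental line, 6.90 and 6.84 in the primary tumour cells, 6.68 and 6.33 in M3-1 and 6.72 and 6.68 in M3-2. The primary tumour arrays were again the highest, by 0.44 over the parental line (adjusted p = 0.116), at a brightness where folds are understated. RRM2, the small subunit of ribonucleotide reductase, which makes deoxynucleotides, read 10.58 and 10.48 in the parental line, 10.85 and 10.91 in the primary tumour cells, 10.67 and 10.79 in M3-1 and 10.96 and 10.79 in M3-2. The parental arrays were the lowest of the 8, and the differences were 0.35 in the primary tumour cells (adjusted p = 0.125) and 0.35 in M3-2 (adjusted p = 0.102). TYMS, thymidylate synthase, read 12.35 and 12.29 in the parental line, 12.05 and 11.99 in the primary tumour cells, 12.20 and 12.21 in M3-1 and 12.55 and 12.28 in M3-2. It was lowest in the primary tumour arrays, with M3-2 higher than these by 0.40 (adjusted p = 0.0782). These 3 genes did not pass the F test (adjusted p from 0.171 to 0.178).

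For the helicase and clamp no gene was called with 2 arrays a group, by the brightest probes or with probes tested apart. The 6 MCM genes, whose products form the ring that unwinds DNA at the fork, differed by -0.12 (MCM2) to 0.20 (MCM5) in the primary tumour cells, -0.25 (MCM6) to 0.12 in M3-1 and -0.28 (MCM2) to 0.06 in M3-2, each against the parental line, with adjusted p values from 0.269 upward. By their brightest probes, all 6 were below the primary tumour cells in M3-1 (-0.26 to -0.05) and in M3-2 (-0.29 to -0.14). Of the 6, 3 and 5 were free of overlap. The second MCM4 probe went the other way, at 0.06 in M3-1 and 0.22 in M3-2. The 12 G1/S and replication genes had 7 below without overlap in each of these comparisons, where all genes gave 29.5% and 28.3%. In M3-2 minus primary tumour 0 of the 35 genes were called by limma, against 9.16% of all genes (4.36% higher and 4.8% lower), with 4 at an unadjusted p under 0.05 (22.3% of all genes). By its brightest probe, PCNA differed most in M3-1 minus primary tumour, by -0.20 (adjusted p = 0.415). With probes tested apart in limma, another MCM7 probe gave 0.46 in primary tumour minus parental (adjusted p = 0.0824). It gave -0.49 in M3-2 minus primary tumour (adjusted p = 0.0538). Another PCNA probe gave 0.42 in primary tumour minus parental (adjusted p = 0.101). Every probe of MCM7 and PCNA was above zero there, while the second probes of MCM3 and MCM4 were below (-0.11 and -0.06). E2F1, the transcription factor, ran from 7.68 in the primary tumour cells to 7.91 in M3-2 (adjusted p of the F test 0.62). Of the 13 genes with several probes, all probes had one sign in 53 of 78 gene and comparison pairs. MCM4 (1 of 6), KIF11, MCM3 and PCNA (3 of 6 each) disagreed most.

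Outside the 35 genes, 8 lists of cell cycle genes held 147 genes, of which 139 were above background. In M3-2 minus M3-1 the other mitotic lists leaned as the 23 genes did. Of 16 mitotic entry regulators (such as FOXM1, MYBL2 and WEE1) 13 were below zero (median -0.19) and 11 without overlap. Of 21 kinetochore and checkpoint genes 17 were below zero (median -0.13) and 10 without overlap, and of 23 spindle, condensin and cytokinesis genes 19 (median -0.19) and 13. Joined with the 23 genes, 71 of 83 mitotic genes were below zero, and without overlap 51 lay below and 4 above. KIF20A was the only call among the 83. All genes gave 23.1% below and 21.4% above without overlap, and 2.45% called. The 3 replication lists joined with the 12 G1/S and replication genes had 32 of 60 below zero, with 11 free of overlap in each direction and no call in limma. FOXM1, the factor that drives G2 and M genes, was at -0.37 there (adjusted p = 0.262) and MYBL2, which encodes B-MYB, at -0.24 (adjusted p = 0.662).

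Among the 139 genes the largest called differences lay in regulators of G1. CDKN1B encodes p27, the inhibitor of cyclin E and CDK2. It read 11.03 and 11.51 in the parental line, 10.19 and 10.42 in the primary tumour cells, 9.81 and 9.81 in M3-1 and 10.35 and 10.41 in M3-2. All 6 arrays of the derivatives lay below both parental arrays, and M3-1 was lowest. CDKN1B fell in the primary tumour cells by 0.96 (SE 0.16, adjusted p = 0.00175), in M3-1 by 1.46 (2.75-fold, adjusted p = 2.52e-05) and in M3-2 by 0.89 (adjusted p = 0.00152). These calls held in each of the 18 settings.

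CDC25A, the phosphatase that activates CDK2, read 8.79 and 8.99 in the parental line, 9.16 and 9.24 in the primary tumour cells, 7.80 and 7.89 in M3-1 and 8.79 and 9.21 in M3-2. M3-1 stood well below the other 6 arrays. CDC25A fell in M3-1 by 1.04 against the parental line (2.06-fold, SE 0.15, adjusted p = 0.000351), and M3-2 was 2.21-fold above M3-1 (1.15, adjusted p = 0.000636), the only call among the 139 genes in that comparison (0.719%, against 2.45% of all genes). Both held in each setting.

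CDK6, a cyclin D kinase, read 8.69 and 8.90 in the parental line, 7.98 and 7.98 in the primary tumour cells, 8.38 and 8.33 in M3-1 and 8.26 and 8.35 in M3-2. The primary tumour arrays were lowest and the parental ones highest. It fell in the primary tumour cells by 0.81 (adjusted p = 0.00115, in each setting) and in M3-2 by 0.49 (adjusted p = 0.0208, lost without parental replicate 2, either M3-1 array or either M3-2 array, with adjusted p up to 0.136). CCND3, the gene of cyclin D3, rose in the primary tumour cells by 0.70 (adjusted p = 0.00379, in each setting). E2F7, a repressor among the E2F factors, rose in M3-1 by 0.63 (adjusted p = 0.013) and in M3-2 by 0.57 (adjusted p = 0.0202). MYC fell in M3-1 by 0.50 (adjusted p = 0.03) and in M3-2 by 0.51 (adjusted p = 0.0214). The E2F7 calls were lost without parental replicate 1 or either array of the derivative itself (adjusted p up to 0.197). Those of MYC were lost without parental replicate 1, without either M3-1 array and with only the groups compared. In M3-1 the MYC call was also lost without either primary tumour array. In M3-2 it was also lost without M3-2 replicate 2, with array weights and with the mean of probes.

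**Figure D5:**
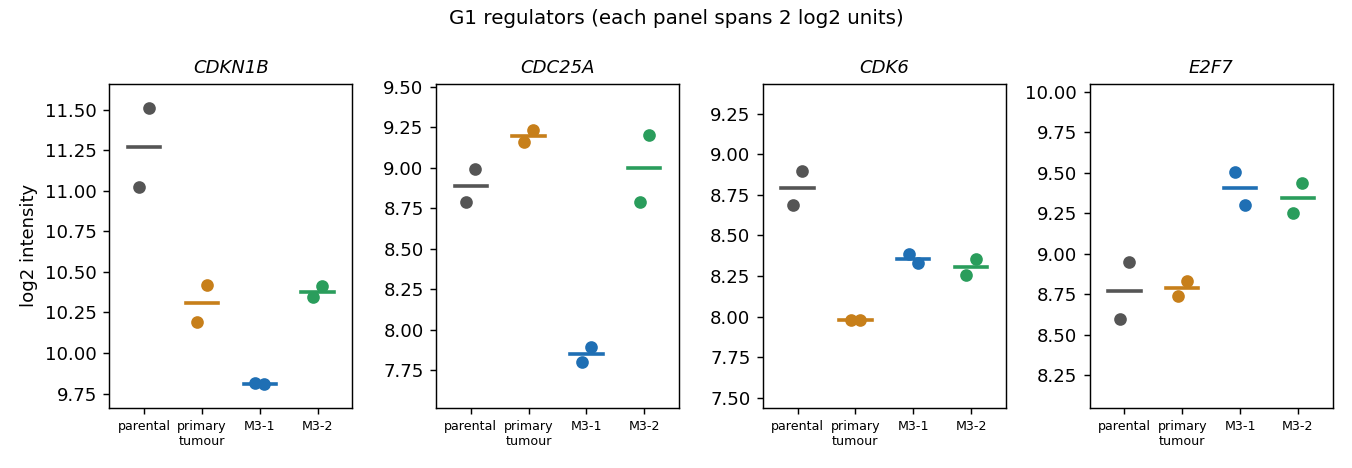
Log2 intensity (vertical axis) of CDKN1B, CDC25A, CDK6 and E2F7 in the 4 groups (horizontal axis), with 1 point for each array and a bar for the mean of 2 arrays. CDKN1B is lower in all derivatives than in the parental line, and CDC25A is lowest in both M3-1 arrays (7.80 and 7.89).

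In the remaining lists, scattered genes passed. Against the parental line, RPA2, a subunit of the protein that coats single-stranded DNA, rose in the primary tumour cells (0.56, adjusted p = 0.0149) and in M3-1 (0.47, adjusted p = 0.0277), and TK1, thymidine kinase, rose in M3-1 (0.47, adjusted p = 0.0361). DUT, which clears dUTP, fell by 0.52 in M3-1 (adjusted p = 0.0279) and by 0.65 in M3-2 (adjusted p = 0.00644), and UNG, which removes uracil from DNA, fell by 0.44 in M3-1 (adjusted p = 0.0426). In M3-2 the licensing inhibitor GMNN rose (0.53, adjusted p = 0.0217), while the replication factor GINS3 fell by 0.62 (adjusted p = 0.00816), MCM8 by 0.49 (adjusted p = 0.0314) and the CDK inhibitor CDKN2D by 0.44 (adjusted p = 0.0328). Among mitotic lists NCAPD2, a condensin subunit, fell in the primary tumour cells by 0.79 (adjusted p = 0.0129), and KIF14, a cytokinesis kinesin, rose in M3-1 (0.45, adjusted p = 0.0314). Each of the calls in this paragraph was lost on leaving out at least 1 array of the derivative it concerns. All but those of GINS3 and of DUT in M3-2 were also lost in some setting that left out no single array.

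Over the 139 genes, 2 rose and 3 fell in the primary tumour cells against the parental line (3.6% against 6.83% of all genes). In M3-1, 4 rose and 7 fell (7.91% against 9.86%), and in M3-2, 2 rose and 8 fell (7.19% against 12.1%).

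In M3-2 minus M3-1 the median over mitotic genes was -0.21 for the 13 with a cell cycle homology word in the promoter window and -0.21 for the 5 without, and the difference between these sets was not tested. KIF20A, the gene with the widest difference, held CCAAT words and no cell cycle homology word, while CDC20 and MKI67 held 2 of each. CENPF, with 1 cell cycle homology word after its start and 4 CCAAT words, kept its own order of groups, as described above.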

How the data were processed

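The authors deposited log2 intensities for 47320 probes on 8 arrays (4 groups of 2), and all results rest on that table. Per the labels' protocols, RNA was column-purified, checked on a bioanalyser and turned into biotin-labelled cRNA. The software and normalization were not given in the sources used here. All arrays share one distribution (largest spread at a rank 0.0119). A second deposited table was not used, because its 16 columns match no label.

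Background was set at the mode of the values, 6.11 (SD 0.181, estimated below the mode), and a probe counted as above it over 6.54 on at least 2 arrays, the level a share of 0.01 would exceed. Gene names came from GEO's platform annotation (1 symbol for 30112, several for 8, no listed gene for 17200; 0 symbols needed updating), and the brightest of 16841 probes stood for each of 12363 genes. No background is subtracted, so folds of dim genes are understated. limma 3.58.1 in R 4.3.3 fitted 4 group means to all arrays (lmFit, eBayes, 4 residual and 9.37 prior degrees of freedom), with Benjamini-Hochberg adjustment over all genes within a comparison. The fit was tested on simulated data. A difference is a difference of log2 means, and its fold is 2 to that power.

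All 35 genes are named. Values of every array are given for genes called in a comparison and for the 4 lowest F p-values in each group. From each further list, up to 3 called genes with the largest difference against the parental line or in M3-2 minus M3-1 are named. CDC20, CCNB2, FOXM1 and MYBL2, and others described by their place in a range, were chosen after their values were seen. The genes and lists were chosen with earlier results of these data known. Alternatives were another filter, probe rule, prior, centring or array weights, a replicate block, fewer groups, and each array left out.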

Additional observations from a re-analysis of the deposited data

Results flagged for a closer look

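Derivatives that differed from each other in their change against the parental line are listed here, with M3-1, M3-2 and the primary tumour cells set against one another by limma. Among the 35 genes, CCNE1 differed between M3-1 and the primary tumour cells (M3-1 minus primary tumour -0.69, adjusted p = 0.00801), and KIF20A differed between M3-2 and M3-1 (-0.65, adjusted p = 0.0151).

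Of the further cell cycle genes taken by the naming rule, M3-1 was lower than the primary tumour cells for CDC25A (-1.35, adjusted p = 5e-05), CCND3 (-0.52, adjusted p = 0.0188), the uracil glycosylase UNG (-0.47, adjusted p = 0.0347) and CDKN2D (-0.44, adjusted p = 0.042). It was higher for the condensin gene NCAPD2 (0.84, adjusted p = 0.00708), E2F7 (0.62, adjusted p = 0.0168) and KIF14 (0.44, adjusted p = 0.0376). Between M3-2 and the primary tumour cells, M3-2 was lower for CDKN2D (-0.67, adjusted p = 0.00347), DUT (-0.55, adjusted p = 0.0248) and CCND3 (-0.53, adjusted p = 0.0183) and higher for E2F7 (0.56, adjusted p = 0.0301). Between M3-2 and M3-1, CDC25A was higher in M3-2 (1.15, adjusted p = 0.000636). Both calls of CDC25A held in each of 18 settings, and that of CDKN2D in M3-2 was lost only with the mean of its probes (adjusted p = 0.0823). Each of the others was lost on leaving out single arrays. In M3-1 minus primary tumour, either primary tumour array or either M3-1 array ended the calls of CCND3 (adjusted p up to 0.214), UNG (0.355), CDKN2D (0.34), E2F7 (0.234) and KIF14 (0.301), and replicate 2 of either group that of NCAPD2 (0.0549 and 0.121). In M3-2 minus primary tumour, either primary tumour array or M3-2 replicate 1 ended the calls of CCND3 (up to 0.177), DUT (0.243) and E2F7 (0.197). Those of DUT and E2F7 were also lost without either M3-1 array (0.0573 and 0.0591), and that of E2F7 without M3-2 replicate 2 (0.161).

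For 3 mitotic genes, both arrays of one derivative lay above both parental arrays and both arrays of another below them. The test of the difference missed the threshold for each. In each of the 3 the derivative above was M3-1, as for 23.8% of all genes. Both arrays lay below for 22% of all genes in the primary tumour cells and 22.5% in M3-2. The share of all genes with both patterns at once was not counted. Margins could be small, as for AURKA, with 11.17 on an M3-1 array and 11.14 on a parental one. CCNB2 differed by 0.24 in M3-1 minus primary tumour (adjusted p = 0.291) and by -0.40 in M3-2 minus M3-1 (adjusted p = 0.149). TPX2 differed by 0.33 in M3-1 minus primary tumour (adjusted p = 0.17). AURKA differed by -0.47 in M3-2 minus M3-1 (adjusted p = 0.0805).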

How the results depend on the processing

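Over 17 alternatives, 179 of the 210 gene and comparison pairs were never called, 31 were called in some setting, and no reported call changed direction. Of the 6 calls among the 35 genes, only that of CCNE1 in the primary tumour cells held throughout. Of the 35 genes, leaving out 1 array gave 1 to 9 differing among the 4 groups, 1 to 4 called in the primary tumour cells minus parental, 0 to 3 in M3-1 minus parental, 0 to 4 in M3-2 minus parental, 0 to 5 in M3-1 minus primary tumour, 0 to 2 in M3-2 minus primary tumour and 0 to 4 in M3-2 minus M3-1. Counts over all genes also rose and fell between these settings. Array weights gave 7 in the F test, 1 in M3-2 minus parental, 7 in M3-1 minus primary tumour, 2 in M3-2 minus primary tumour and 4 in M3-2 minus M3-1. With those weights all genes gave 2542 of 12363 in the F test, and 1021, 2393, 1539 and 546 in these comparisons in the same order. Fitting only the groups compared gave 1 in the primary tumour cells minus parental, 0 in M3-2 minus parental, 8 in M3-1 minus primary tumour and 4 in M3-2 minus M3-1. The mean of a gene's probes gave 1 in M3-2 minus parental, 2 in M3-1 minus primary tumour and 2 in M3-2 minus M3-1, and separate probes and a trended robust prior each gave 2 in the last. With the mean of probes all genes gave 1521, 1098 and 303 in the same order. In M3-2 minus M3-1, 332 of 16841 separate probes were called, and 346 genes with the trended prior. With the replicate number as a block, the counts were 1 in M3-1 minus parental, 2 in M3-1 minus primary tumour, 1 in M3-2 minus primary tumour and 3 in M3-2 minus M3-1. All genes gave 1433, 1351, 1441 and 391 there in the same order. However, deviations of same-numbered arrays correlated at -0.18 to 0.521, and the labels do not say that numbers pair arrays. Counts over all genes moved by over 1.5 times as follows. The 845 of the primary tumour cells minus parental became 415 with only those groups, and 355 to 1392 with 1 array left out. In M3-1 minus primary tumour 1086 became 2393 with array weights, 2266 with only those groups and 426 to 1764 with 1 array left out. In M3-2 minus M3-1 303 became 546, 485 and 94 to 492 in the same order. In M3-2 minus parental 1498 became 994 with only those groups and 931 without M3-2 replicate 1, in M3-1 minus parental 1219 became 572 or 571 without either M3-1 array, and in M3-2 minus primary tumour 1132 became 519 to 1845 with 1 array left out. The 2016 of the F test became 1295 or 1300 without either M3-1 array. The cause of these shifts was not tested.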

Other observations

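Some cell cycle genes outside the 35 passed the limma test against the primary tumour cells, which the naming rule did not cover, and they are named here after their values were seen. In M3-1 minus primary tumour, 7 of the 139 further cell cycle genes rose and 4 fell (7.91% against 8.78% of all genes). Of the 7, 5 came from the mitotic lists. These were FOXM1 (0.47, adjusted p = 0.0442), the separase gene ESPL1, whose product cuts cohesin at anaphase (0.56, adjusted p = 0.0176), the mitotic kinesin gene KIF15 (0.61, adjusted p = 0.0464), NCAPD2 and KIF14. The catalytic subunit of DNA polymerase epsilon, POLE, rose as well (0.56, adjusted p = 0.0368). In M3-2 minus primary tumour, 3 rose and 5 fell (5.76% against 9.16% of all genes). The primase gene PRIM1 (0.53, adjusted p = 0.0274) and the CDK4 and CDK6 inhibitor gene CDKN2B (0.50, adjusted p = 0.0204) rose, while the flap endonuclease gene FEN1 fell by 0.44 (adjusted p = 0.034) and the mitotic kinase gene PBK by 0.46 (adjusted p = 0.0496).

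RBL2, which encodes the p130 pocket protein of the DREAM complex, fell by 0.47 in M3-1 (adjusted p = 0.0322) and by 0.45 in M3-2 (adjusted p = 0.0317) against the parental line. CDK6 also fell in M3-1, by 0.43 (adjusted p = 0.0444). How the calls named under this heading depend on single arrays was not tested, apart from those of NCAPD2 and KIF14, whose losses are given above.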
